A study of Mus musculus with 29 samples.

Results

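The genes described here were 50 genes of the cell cycle and of proliferating cells, chosen by name for their known roles. Of these, 49 were among the 13982 genes of the table, and Cenpf was not analysed here. By role, the 49 were 6 genes of G1 (D and E cyclins, Cdk4 and E2f1), 11 of replication licensing and the fork, 4 of nucleotide supply, 8 mitotic cyclins and kinases, 16 of chromosome, spindle and checkpoint, and 4 of chromatin and tubulin.

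RNA was measured in 14 libraries of (NZBxNZW)F1 mice, called NZB/W, a cross prone to lupus nephritis, without a transgene or other engineered allele named in the labels. The proteinuric mice gave 4 libraries of kidney tissue (mice H6, H20, H115 and H117, aged 39, 36, 25 and 32 weeks), 3 of tertiary lymphoid structures (TLS) dissected by hand from the kidney (mice H6, H20 and H115) and 3 of lymph node (mice H6, H20 and H117). Another 3 lymph node libraries came from mice with anti-dsDNA antibodies, aged 28, 29 and 18 weeks and here numbered 1, 2 and 3, and 1 came from a young mouse aged 4 weeks. A hand-dissected TLS also holds kidney tissue, and each library is RNA of a whole tissue piece, in which fewer cells of a type and less RNA per cell cannot be told apart.

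A resting cell enters the cycle when D cyclins and Cdk4 free the E2F factors, which switch on the genes of DNA synthesis. The Mcm proteins are loaded on replication origins and unwind the DNA together with Cdc45, while ribonucleotide reductase and thymidylate synthase supply nucleotides and Pcna clamps the polymerase. Later the A and B cyclins with Cdk1, the Aurora and Polo-like kinases and the spindle checkpoint carry the cell through mitosis. In lymphoid tissue, B cells divide rapidly in germinal centers, whereas most tubular cells of the kidney rest until injury makes them divide.

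Many of these genes are known to be switched on in turn by E2F factors, bound at E2F sites, and by factors bound at the CCAAT box and at the cell cycle homology region, CHR. RefSeq windows (GRCm38.p6) were found for 40 of the 50 genes. Ccnd2, Ccne2, Mcm4, Gins2, Ccna2, Aurkb, Tpx2, Kif20a, Stmn1 and H2afz were not searched. In the 250 bases before the start, on both strands, the letters searched were CCAAT for the CCAAT box, TTTGAA for the CHR and TTTCCCGC, TTTCGCGC, TTTGCCGC or TTTGGCGC for E2F.

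The stretches below are the 140 bases before the start, 5′ to 3′, with the matches on either strand in capitals, and show mitosis genes that the results turn on. They lie in GRCm38.p6, Cdc20 at chr4:118437344-118437483 on the minus strand, Cdk1 at chr10:69352913-69353052 on the minus strand, Top2a at chr11:99024190-99024329 on the minus strand, Mki67 at chr7:135716380-135716519 on the minus strand and Ccnb2 at chr9:70421555-70421694 on the minus strand. CCAAT was found in 18 of 21 mitosis genes with a window (85.7%) and the CHR in 8 (38.1%), against 37.5% and 18.3% of all 27025 genes with a window. The CHR of Ccnb2 lies upstream of the stretch shown, as do further matches of Top2a and Cdk1. The CCAAT matches of Mki67 lie upstream of its stretch or across its edge.
Cdc20: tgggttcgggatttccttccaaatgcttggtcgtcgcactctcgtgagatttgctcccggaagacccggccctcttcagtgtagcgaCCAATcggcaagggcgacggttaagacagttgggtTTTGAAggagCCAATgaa
Cdk1: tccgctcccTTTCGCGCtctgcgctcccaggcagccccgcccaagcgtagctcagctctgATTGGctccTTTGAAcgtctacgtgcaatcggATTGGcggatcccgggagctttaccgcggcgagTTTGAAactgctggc
Top2a: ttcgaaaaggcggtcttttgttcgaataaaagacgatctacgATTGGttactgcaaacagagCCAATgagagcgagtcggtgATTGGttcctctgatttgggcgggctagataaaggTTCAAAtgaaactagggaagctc
Mki67: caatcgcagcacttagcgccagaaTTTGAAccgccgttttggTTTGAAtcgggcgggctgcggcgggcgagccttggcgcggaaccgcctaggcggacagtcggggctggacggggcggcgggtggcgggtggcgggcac
Ccnb2: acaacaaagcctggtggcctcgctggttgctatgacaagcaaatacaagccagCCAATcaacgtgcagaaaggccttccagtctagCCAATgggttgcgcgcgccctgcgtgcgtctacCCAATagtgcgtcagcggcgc

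For contrast, the next stretches show 3 of the Mcm helicase genes and Cdk4, a gene that passed the test in no comparison. They lie in GRCm38.p6, Mcm6 at chr1:128359706-128359845 on the minus strand, Mcm5 at chr8:75109369-75109508 on the plus strand and Mcm3 at chr1:20820313-20820452 on the minus strand, and Cdk4 at chr10:127063395-127063534 on the plus strand. E2F letters were found in 5 of 13 S-phase genes with a window (38.5%), a gene being counted if any of its windows held them, in 1 of 21 mitosis genes (4.76%, Cdk1) and in 2.16% of all genes. CCAAT was found in 10 of the 13 S-phase genes (76.9%), beside 85.7% of the mitosis genes, and the CHR in 2 (15.4%). In Mcm6 the first 2 E2F matches overlap each other, and the E2F matches of Mcm5 lie farther upstream than the stretch shown. A match is a run of letters and was not tested for binding.
Mcm6: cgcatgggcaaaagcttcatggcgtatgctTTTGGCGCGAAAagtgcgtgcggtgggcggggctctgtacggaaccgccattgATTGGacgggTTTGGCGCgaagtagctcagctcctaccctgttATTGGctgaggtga
Mcm5: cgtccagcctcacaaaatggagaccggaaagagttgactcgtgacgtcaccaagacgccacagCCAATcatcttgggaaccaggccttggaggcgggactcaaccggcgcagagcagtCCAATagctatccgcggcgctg
Mcm3: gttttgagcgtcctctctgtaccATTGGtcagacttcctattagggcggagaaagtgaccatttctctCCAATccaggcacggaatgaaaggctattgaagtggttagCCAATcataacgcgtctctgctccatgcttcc
Cdk4: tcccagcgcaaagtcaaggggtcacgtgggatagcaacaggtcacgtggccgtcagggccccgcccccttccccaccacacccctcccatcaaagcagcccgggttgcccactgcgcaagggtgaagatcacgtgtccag

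The libraries held 343825 to 443379 reads, of which 167440 to 405739 lay outside ribosomal RNA. Ribosomal RNA took 55.6% of the reads in kidney H117, 31.8% in lymph node H6 and 21.3% in TLS H115, and at most 5.33% in the other libraries. The labelled tissues were compared with their markers. Reads of 7 proximal tubule genes were between 1705 and 5020 per 100000 in kidney, 277 and 1678 in TLS and 4.04 and 12.8 in lymph node of proteinuric mice, and all 7 B-cell and all 6 T-cell markers had reads in every TLS and lymph node library. In kidney H115 all 13 of these lymphocyte markers were at 0.

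Summed over the 49 genes, reads were lowest in kidney, higher in TLS and highest in lymph node. Kidney held 462, 461, 152 and 53 reads of these genes in mice H6, H20, H115 and H117, TLS held 978, 732 and 399 in mice H6, H20 and H115, and lymph node held 705, 1155 and 1275 in mice H6, H20 and H117. Per 100000 reads outside ribosomal RNA this was 85.3 ± 55.3 in kidney (SD, n = 4), 187 ± 68.9 in TLS (SD, n = 3) and 303 ± 67.6 in lymph node (SD, n = 3). The ranges of kidney (31.7 to 136) and TLS (114 to 251) overlapped, as did those of TLS and lymph node (237 to 372), while kidney and lymph node were apart.

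**Figure D1:**
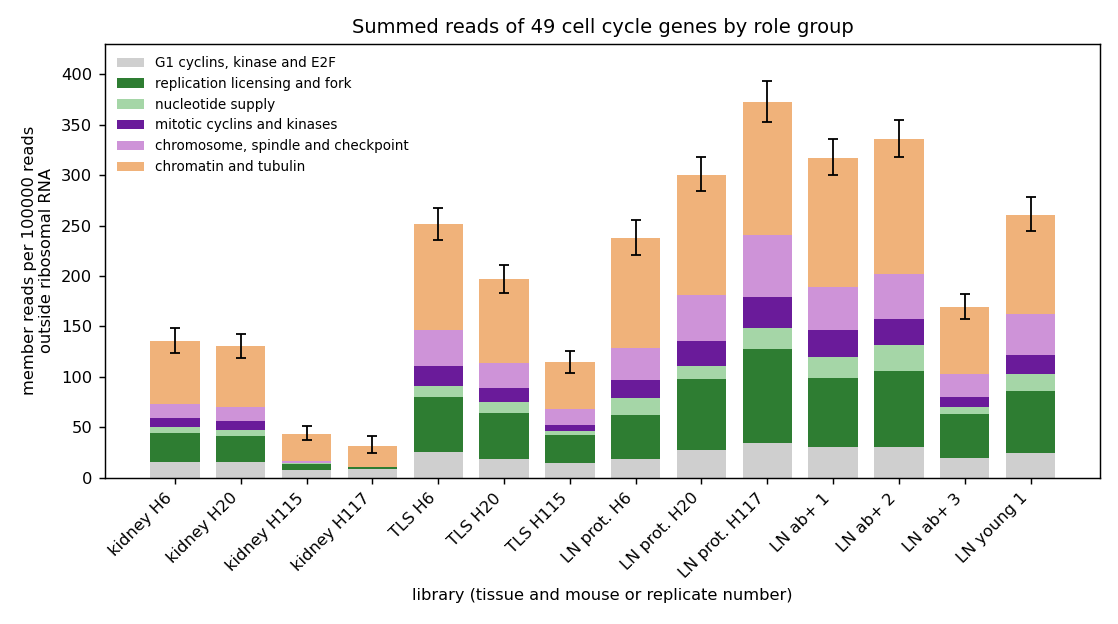
Reads of the 49 cell cycle genes per 100000 reads outside ribosomal RNA (vertical axis) in each of the 14 libraries, stacked by role group. Error bars are 95% Wilson intervals of the total and cover counting error only, LN prot., LN ab+ and LN young are lymph node of proteinuric, antibody-positive and young mice, and the lowest bars are kidney H117 (31.7) and kidney H115 (43.8).

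Within a mouse, TLS was above the kidney tissue of the same animal in all 3 mice with both. The ratio of the sums per 100000 was 1.85 in mouse H6, 1.51 in mouse H20 and 2.61 in mouse H115. Lymph node was above kidney by a ratio of 1.75 in mouse H6, 2.31 in mouse H20 and 11.8 in mouse H117. Lymph node and TLS could be paired in only 2 mice, with ratios of 0.944 in mouse H6 and 1.53 in mouse H20, and scaling by the size factor instead changed the first to 1.23.

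The kidney libraries fell into a higher and a lower pair. In mice H6 and H20, 42 of the 49 genes had at least 1 read in each library, whereas 16 had one in kidney H115 and 8 in kidney H117. None of the 24 mitosis genes had a read in kidney H117, and only Ube2c, an enzyme that tags mitotic cyclins for destruction, and Cdc20, which activates the same destruction complex, had reads in kidney H115. These libraries also held more reads of 4 erythroid genes, 866 in kidney H115 and 867 in kidney H117 against 50 in kidney H6 and 131 in kidney H20. Of all reads, ribosomal RNA included, mitochondrial genes took 23.9% in kidney H115, 8.90% in kidney H117, 18.5% in kidney H6 and 15.3% in kidney H20. Ribosomal RNA took 55.6% of these reads in kidney H117, against 5.13%, 1.64% and 2.73% in kidney H115, H6 and H20. The mitochondrial share of kidney H117 is lowered by this and cannot be ranked against the others on this scale. Of the erythroid genes, Hba-a1, Hba-a2 and Slc4a1 had reads in all 4 kidney libraries and Alas2 in kidney H115 and kidney H117 alone. The part of these differences in the results was not tested.

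The genes with the most reads were not the ones that mark division most closely. Tubb5, a tubulin, took 16.2% of all member reads over the 14 libraries, H2afz, a histone variant, 11.6% and Hmgb2, a chromatin protein, 7.00%. Together with Stmn1, which destabilizes microtubules, this chromatin and tubulin group made up 55.3% ± 10.8 of the member reads in kidney (SD, n = 4), 41.3% ± 0.840 in TLS (SD, n = 3) and 40.3% ± 5.21 in lymph node of proteinuric mice (SD, n = 3). Reads of single genes of mitosis were few, and 23 of the 49 genes had under 100 reads in all libraries together.

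Counting only the 39 genes of S phase and mitosis, kidney H6, H20, H115 and H117 held 197, 192, 28 and 4 reads. TLS held 471, 355 and 186 in mice H6, H20 and H115, and lymph node held 328, 593 and 706 in mice H6, H20 and H117. These were 30.6 ± 29.5 per 100000 in kidney (SD, n = 4), 89.9 ± 34.2 in TLS (SD, n = 3) and 157 ± 47.9 in lymph node (SD, n = 3). The highest kidney library, at 57.8, was just above the lowest TLS library, at 53.3.

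To ask which genes differed between kidney tissue and TLS, each gene was compared on the log2 of its normalized value plus 1, with limma on all 10 libraries of proteinuric mice. The normalized values stem from reads with 1 added, scaled by a size factor for each library, and a log2 fold change on this scale understates the change of low genes. Genes with a mean value under 5 were not tested, which left 33 of the 49 members. Genes with a Benjamini-Hochberg adjusted p below 0.05 over all tested genes are referred to as differentially expressed (DE), and those higher in a tissue as up-regulated there.

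In TLS, 7 of the 33 tested members were up-regulated over kidney and none was down-regulated. Among all 7382 genes tested, 8.62% were up-regulated in TLS and 6.07% in kidney. Of the 33 members, 20 had a kidney mean under 5 and so passed the filter through TLS or lymph node, so that their sign is partly fixed by the filter. Without a filter the log2 fold change had a median of 0.96 over the 49 members and of -0.01 over all genes, and it was above 0 in 48, the exception being Bub1, which had no read in either tissue. The 7 were Ccnd2, Mcm3, Mcm4, Mcm5, Mki67, Top2a and Hmgb2. Of these, Ccnd2, Mcm3, Mcm4, Mki67 and Top2a had kidney means under 5, at 2.25, 3.97, 4.27, 3.31 and 3.12. They passed the filter through TLS or lymph node, so that their sign too is partly fixed by it. Mcm5 and Hmgb2 had kidney means of 5.14 and 8.76.

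Ccnd2, the D cyclin that opens G1 in lymphocytes, had 3, 2, 0 and 0 reads in kidney of mice H6, H20, H115 and H117 and 22, 11 and 17 in TLS of mice H6, H20 and H115. Every TLS library was above every kidney library. The log2 fold change was 2.39 ± 0.35 (SE), with a limma adjusted p of 0.000773. The other G1 genes tested, Cdk4 and Ccnd3, were not called. Cdk4, the kinase partner of the D cyclins, had values of 34.5, 36.3, 22.0 and 21.3 in kidney H6, H20, H115 and H117 and 44.9, 34.6 and 20.7 in TLS H6, H20 and H115. Its groups overlapped, and the 95% interval of the log2 difference ran from -0.54 to 0.94.

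Among the replication genes, 3 of the 9 tested were up-regulated in TLS, all subunits of the Mcm helicase. Mcm5 had 10, 7, 1 and 0 reads in kidney H6, H20, H115 and H117 and 30, 19 and 13 in TLS H6, H20 and H115. Its log2 fold change was 1.89 ± 0.46 (SE; limma adjusted p = 0.0159). Those of Mcm3 and Mcm4 were 1.84 ± 0.46 (adjusted p = 0.0187) and 1.64 ± 0.40 (adjusted p = 0.0164), and in all 3 genes the TLS libraries lay above the kidney libraries. Mcm6 missed the threshold with a log2 fold change of 1.07 ± 0.34 (adjusted p = 0.0541), and Mcm2 and Mcm7 of the same ring had values of 1.00 and 1.15 with adjusted p of 0.248 and 0.127.

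Pcna, the sliding clamp of the polymerase, had values of 29.2, 33.7, 11.6 and 5.32 in kidney H6, H20, H115 and H117 and 40.7, 44.8 and 39.3 in TLS H6, H20 and H115. The groups did not overlap, but the difference of 1.32 ± 0.51 on the log2 scale did not pass the test (adjusted p = 0.106). Of the nucleotide supply genes, Rrm2, the cell-cycle-regulated subunit of ribonucleotide reductase, had a log2 fold change of 1.57 ± 0.60 (adjusted p = 0.106), and with the mouse as a replicate block it was called, at 1.47 ± 0.40 (limma adjusted p = 0.0287). Its partner Rrm1 had a log2 fold change of 1.12 ± 0.37 (adjusted p = 0.0658).

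No mitotic cyclin or kinase of the 7 tested was called. Ccnb2, a B cyclin, had 9, 5, 0 and 0 reads in kidney H6, H20, H115 and H117 and 16, 10 and 2 in TLS H6, H20 and H115, so that TLS H115 lay below kidney H6 and kidney H20. Its log2 difference was 0.98, with a 95% interval from -0.18 to 2.15. Cdk1, the kinase that drives entry into mitosis, had a log2 difference of 0.74, with an interval from -0.36 to 1.84.

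In the chromosome, spindle and checkpoint group, 2 of 8 tested genes were up-regulated in TLS. Mki67, the gene of the Ki-67 proliferation antigen, had 4, 6, 0 and 0 reads in kidney H6, H20, H115 and H117 and 18, 16 and 16 in TLS H6, H20 and H115. The TLS libraries were close to each other and all above kidney, with a log2 fold change of 2.12 ± 0.45 (SE; limma adjusted p = 0.0078). Top2a, the topoisomerase that untangles chromosomes, had 6, 3, 0 and 0 reads in kidney and 9, 12 and 7 in TLS, with a log2 fold change of 1.45 ± 0.40 (adjusted p = 0.0298).

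In the chromatin and tubulin group Hmgb2 was up-regulated in TLS. It had 16, 13, 3 and 1 reads in kidney H6, H20, H115 and H117 and 55, 42 and 29 in TLS H6, H20 and H115, and its log2 fold change was 2.17 ± 0.43 (SE; limma adjusted p = 0.00505). Tubb5 ranged from 10.6 to 89.3 in kidney and from 71.5 to 157 in TLS, with overlapping groups and a log2 difference of 1.48 ± 0.60 (adjusted p = 0.121).

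**Figure D2:**
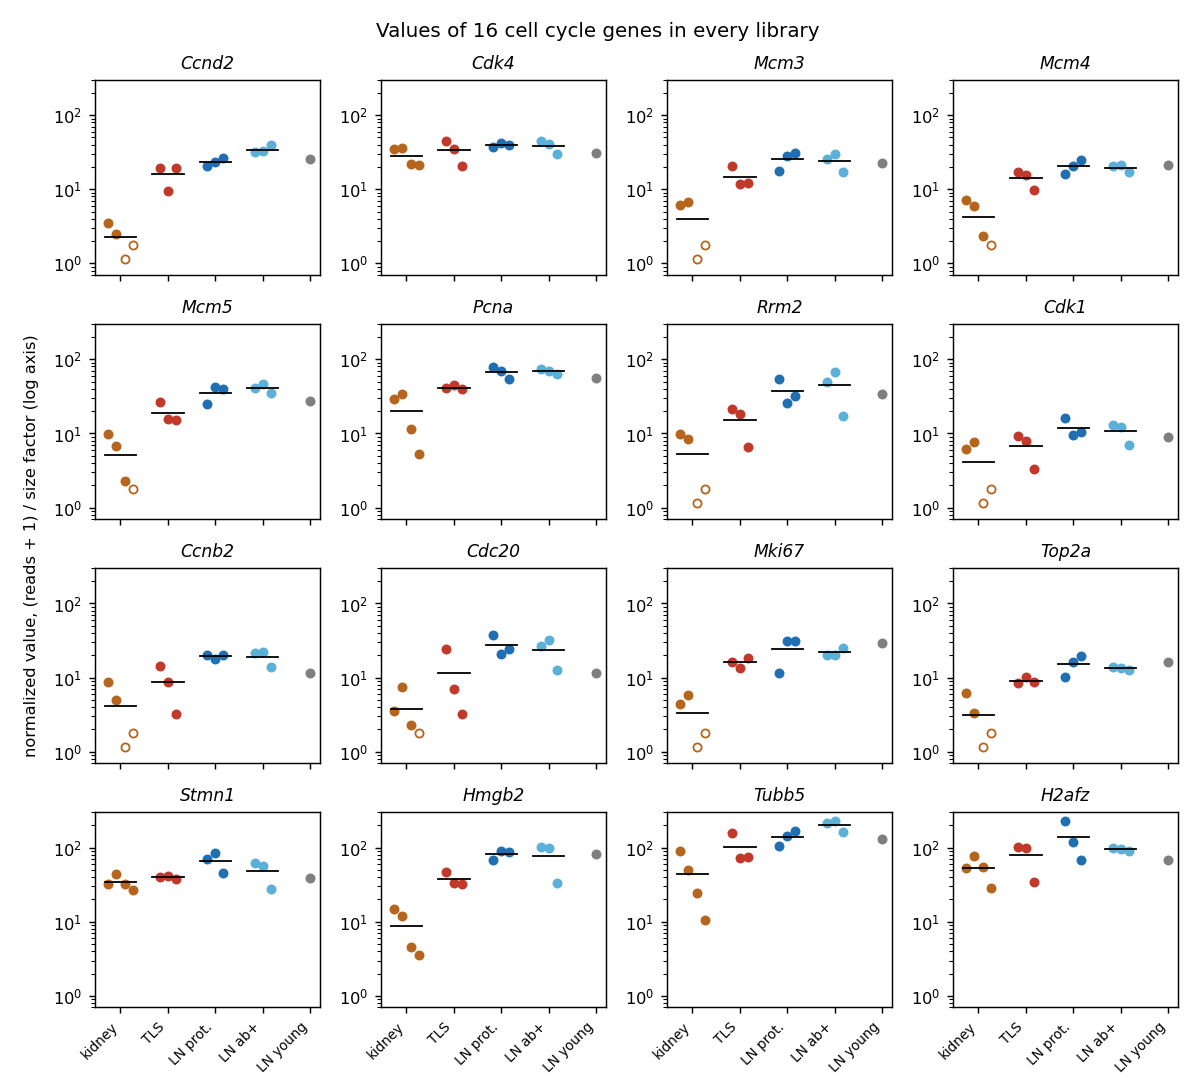
Normalized values (reads with 1 added, scaled by the size factor) of 16 members in each of the 14 libraries (vertical log axis), by group on the horizontal axis, in the library order used in the text. Filled points are libraries with reads, open points libraries with none, and lines are means of groups of 3 or 4. In kidney the first 2 points of most panels lie above the other 2, and Cdk4 lies between 20.7 and 44.9 in every library.

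The count of up-regulated members depended on single libraries. It was 3 of 31 tested members without TLS H6 and 13 of 33 without TLS H115. It was 4 of 34 without kidney H115, 11 of 34 without kidney H20 and 12 of 34 without kidney H6. Without both kidney H115 and kidney H117 it was 2 of 37, with Ccnd2 and Hmgb2 the members still called. Scaled to reads outside ribosomal RNA it was 3 of 33, namely Ccnd2, Hmgb2 and Mki67. The shares of all genes called in these fits are not given here. A change in the members alone therefore cannot be told from a change in all genes.

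The markers of other cells moved along with these genes. All 7 B-cell, all 6 T-cell, 3 of 4 tested plasma cell, 3 of 6 tested macrophage and all 5 tested urothelium markers were up-regulated in TLS, and 3 of 7 proximal tubule markers in kidney. Of 8 germinal center markers 3 could be tested and 1 was up-regulated, with sums of 0 to 3.23 reads per 100000 in kidney and 6.42 to 12.1 in TLS, and Mef2b was at 0 in every kidney and TLS library. Erythroid reads were 51, 166 and 4930 in TLS H6, H20 and H115, so that the TLS library with the fewest member reads had the most of them, with Hba-a1, Hba-a2, Alas2 and Slc4a1 all present. The part of these cells in the results was not tested.

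The next comparison asked how far TLS and lymph node of proteinuric mice differed in these genes. Of the 33 tested members none was DE, where 10.6% of all genes were. At an unadjusted p under 0.05 there were 5 members (22.6% of all genes, in either direction), namely Cdc20, Plk1, Ccnb2, Cenpa and Hmgb2. Neither edgeR's quasi-likelihood test nor DESeq2 called any member. Without a filter on low values the log2 difference, lymph node minus TLS, had a median of 0.69 over the 49 members against 0.06 over all genes.

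The 2 largest differences were in genes of mitosis, Cdc20 and Plk1. Cdc20 had values of 24.6, 7.07 and 3.27 in TLS H6, H20 and H115 and 37.7, 20.8 and 24.3 in lymph node H6, H20 and H117, overlapping through TLS H6. The log2 difference was 1.53, with a 95% interval from 0.23 to 2.84 and a limma adjusted p of 0.142. Plk1, the Polo-like kinase of mitosis, had 6, 6 and 0 reads in TLS and 4, 15 and 18 in lymph node, with a log2 difference of 1.51 (adjusted p = 0.0989). Cenpa, the histone variant of the centromere, had 6, 3 and 2 reads in TLS and 8, 9 and 11 in lymph node, with a log2 difference of 1.23 and the lowest adjusted p of the members, 0.0786. Plk1 and Cenpa had means under 5 in both TLS and kidney and passed the filter only through lymph node. Their sign is therefore partly fixed by the filter.

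Genes with many reads left wide intervals as well. Mki67 had values of 16.1, 13.4 and 18.5 in TLS and 11.6, 31.3 and 30.8 in lymph node H6, H20 and H117, so that lymph node H6 lay below all 3 TLS libraries. The log2 difference was 0.48, with an interval from -0.58 to 1.53. Mcm5 had 0.86 (interval -0.21 to 1.93), Pcna 0.67 (interval -0.51 to 1.85), Top2a 0.64 (interval -0.30 to 1.57) and Tubb5 0.52 (interval -0.86 to 1.91). Differences of up to more than 1 on the log2 scale therefore lay within these intervals, and TLS and lymph node were not shown to be alike. Rrm2 at 1.31, Ccnb2 at 1.25 and Cdk1 at 0.80 did not pass the test either.

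In the same comparison, 4 of 6 T-cell markers and none of 7 B-cell markers were up-regulated in lymph node, while 6 of 7 proximal tubule, both thick ascending limb and all 5 tested urothelium markers were up-regulated in TLS. Urothelium genes were at 0 in all 3 lymph node libraries of proteinuric mice and had 169 to 684 reads in TLS. Without TLS H6, 1 of 31 tested members was called, Cdc20, and 2 of 37 were called without kidney H115 and kidney H117, Cenpa and Hmgb2. For these fits the shares of all genes called are not given here, so the counts cannot be set against a background.

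Between kidney and lymph node of proteinuric mice, 30 of the 33 tested members were up-regulated in lymph node and none in kidney. The background was 20.8% of all 7382 genes up-regulated in lymph node and 23% in kidney. As in the comparison with TLS, 20 of the 33 members had a kidney mean under 5 and passed the filter through TLS or lymph node. Their sign is partly fixed by the filter here too. Without a filter the median log2 fold change was 1.69 over the 49 members and 0.03 over all genes. The members not called were Cdk4 (0.51, adjusted p = 0.245), Ccnd3 (0.62, adjusted p = 0.193) and H2afz (1.28, adjusted p = 0.0628, or 0.0421 with the mouse as a replicate block). Cdk4 and Ccnd3 belong to the G1 group, as does Ccnd2, which was called (2.96, limma adjusted p = 2.37e-05).

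All 9 tested replication genes and both tested genes of nucleotide supply were up-regulated in lymph node. Mcm5 had 16, 43 and 48 reads in lymph node H6, H20 and H117, against 10, 7, 1 and 0 in kidney, and a log2 fold change of 2.75 ± 0.46 (SE; limma adjusted p = 0.000381). Rrm2 had 36, 26 and 39 reads in lymph node, against 10, 9, 0 and 0 in kidney, and a log2 fold change of 2.88 ± 0.60 (adjusted p = 0.00203). The fold changes of Mcm3, Mcm4, Cdc45 and Pcna were 2.59, 2.16, 2.10 and 2.00, with adjusted p of 0.000608, 0.000831, 0.000954 and 0.00673. Cdc45, which joins the Mcm ring to form the active helicase, had 2 reads in the 4 kidney libraries together and 26 in the 3 of lymph node. It passed the filter only through lymph node, and fell under it and was not tested without TLS H6 or without any 1 of the 3 lymph node libraries.

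The 7 tested mitotic cyclins and kinases and the 8 tested genes of chromosome, spindle and checkpoint were all up-regulated in lymph node. Ccnb2 had values of 20.3, 18.0 and 20.2 in lymph node H6, H20 and H117 and 8.84, 5.06, 1.16 and 1.77 in kidney H6, H20, H115 and H117. The lymph node libraries were close to each other and above every kidney library, with a log2 fold change of 2.24 ± 0.54 (SE; limma adjusted p = 0.00472). Cdc20, at 2.67 ± 0.56 (adjusted p = 0.00205), Mki67, at 2.60 ± 0.45 (adjusted p = 0.000517), and Top2a, at 2.09 ± 0.40 (adjusted p = 0.00108), moved alike, and Cdk1 rose by 1.53 ± 0.51 (adjusted p = 0.0268).

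Hmgb2 and Ccnd2 had the largest fold changes. Hmgb2 had 46, 94 and 108 reads in lymph node H6, H20 and H117 and 16, 13, 3 and 1 in kidney H6, H20, H115 and H117, with a log2 fold change of 3.28 ± 0.43 (SE; limma adjusted p = 5.93e-05). Ccnd2 followed with 2.96 ± 0.35 (adjusted p = 2.37e-05). Tubb5, of the same group as Hmgb2, had a smaller one of 2.00 ± 0.60 (adjusted p = 0.0162). Without kidney H115 and kidney H117, 20 of 37 tested members were called, 17 of them shared with the 30. Without the 3 libraries with the most ribosomal RNA it was 24 of 33 tested. The shares of all genes called in these fits are not given here. All B-cell, T-cell and tested plasma cell markers and 4 of 6 tested macrophage markers were up-regulated in lymph node too, and their part was not tested.

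**Figure D3:**
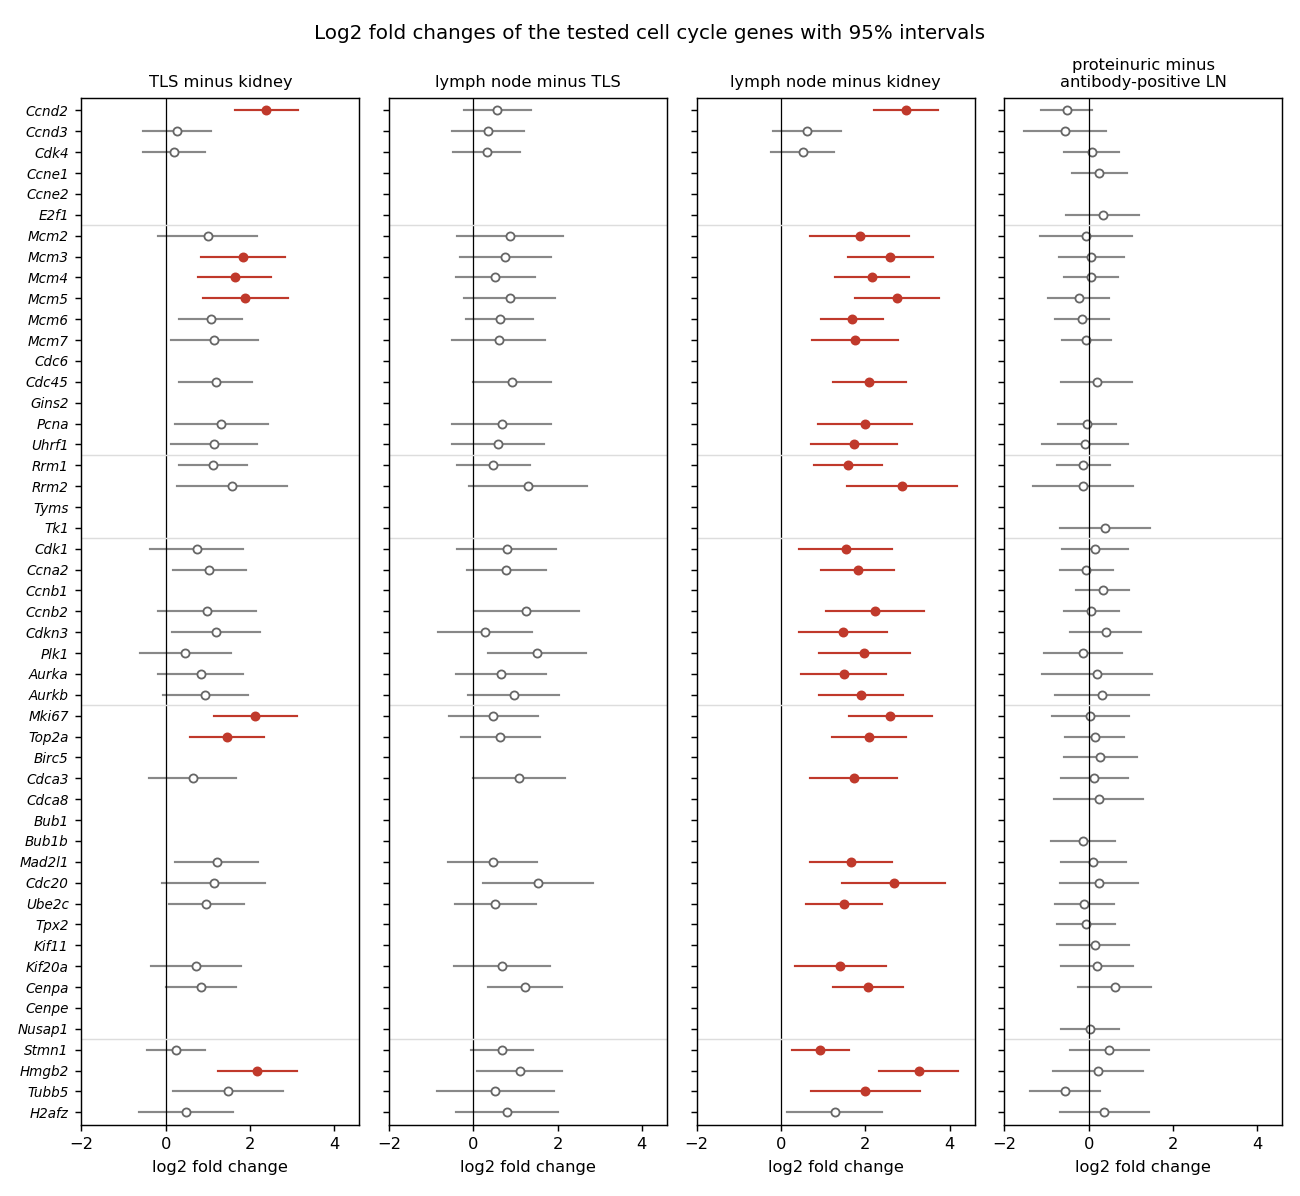
Log2 fold changes of the tested members (horizontal axis, on the log2(value + 1) scale) with 95% intervals in 4 comparisons, genes in rows and role groups divided by grey lines. Red filled points are DE at an adjusted p under 0.05 (7 in TLS over kidney, 0 in lymph node over TLS, 30 in lymph node over kidney and 0 in proteinuric over antibody-positive lymph node), open points are not, and genes without a point were not tested.

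The 3 comparisons of tissues share their libraries, each tissue entering a pair of them, so the lists of called genes are not independent of each other. Side by side, the log2 fold changes over kidney in TLS and in lymph node were 2.12 and 2.60 for Mki67, 1.45 and 2.09 for Top2a, 1.89 and 2.75 for Mcm5, 1.14 and 2.67 for Cdc20, and 0.98 and 2.24 for Ccnb2. In this order Mki67 had the smallest step from TLS to lymph node and Cdc20 the largest, and neither step passed the test.

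The share of mitosis among the reads of S-phase and mitosis genes lay between 38.8% and 45.7% in every library other than kidney H115 and kidney H117. It was 45.6%, 40.8% and 40.3% in TLS H6, H20 and H115, 44.8%, 45.7% and 44.5% in lymph node H6, H20 and H117, and 44.1%, 40.9% and 38.8% in the antibody-positive libraries 1, 2 and 3. Kidney H6 and kidney H20 lay in the same range, at 40.1% (95% Wilson interval 33.5 to 47.1) and 42.7% (interval 35.9 to 49.8). In kidney H115 the share was 17.9% of 28 reads (interval 7.88 to 35.6) and in kidney H117 it was 0% of 4 reads (interval up to 48.99).

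Reads of S-phase and mitosis genes were also set against reads of the 13 B- and T-cell markers of the same library. There were 55.8, 57.4 and 43.7 reads of these genes per 100 lymphocyte marker reads in TLS H6, H20 and H115 and 48.5, 42.3 and 52.2 in lymph node H6, H20 and H117. On this scale TLS (52.3 ± 7.53, SD, n = 3) and lymph node (47.7 ± 5.01, SD, n = 3) overlapped. Kidney H6 and kidney H20 stood far above, with 197 reads of these genes beside 15 lymphocyte marker reads, or 1313 per 100, and 192 beside 43, or 447 per 100. Kidney H117 had 4 reads of these genes beside 10, or 40 per 100, below every TLS and proteinuric lymph node library. With so few reads and no interval, this value does not show a direction. The antibody-positive lymph node libraries 1, 2 and 3 had 43.2, 34.3 and 37.6 per 100. Kidney H115 had 28 reads of these genes and none of the lymphocyte markers.

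**Figure D4:**
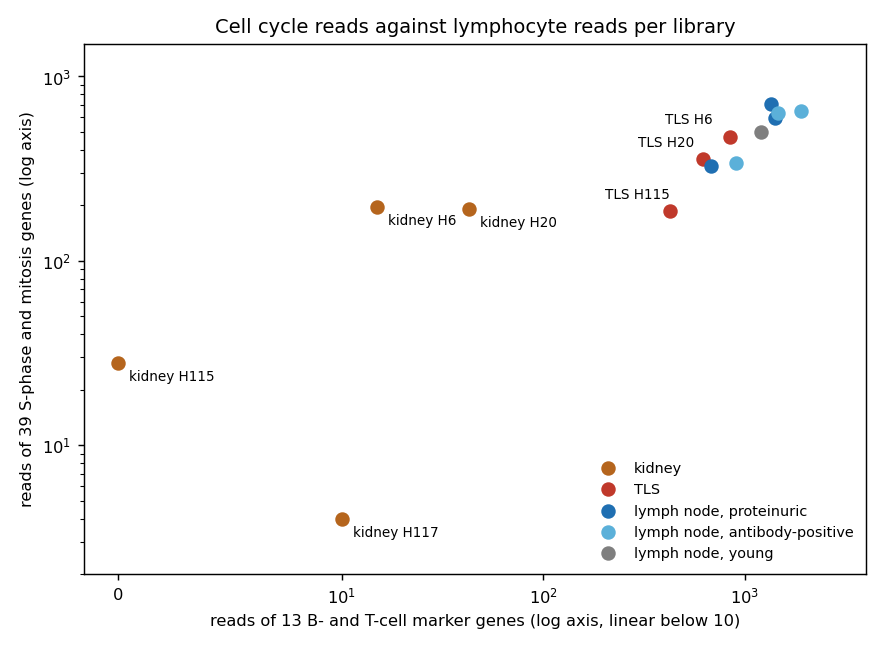
Reads of the 39 S-phase and mitosis genes (vertical log axis) against reads of 13 B- and T-cell marker genes (horizontal log axis, linear below 10), 1 point per library, colored by group. TLS and lymph node libraries lie together at 426 to 1895 lymphocyte reads, while kidney H6 and kidney H20 hold 197 and 192 reads of the cell cycle genes beside 15 and 43 lymphocyte reads, kidney H117 holds 4 beside 10 and kidney H115 holds 28 beside 0.

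In lymph nodes the disease state was compared between 3 antibody-positive and 3 proteinuric mice. None of the 43 tested members was DE, nor was any of the 6810 genes tested (0%), and at an unadjusted p under 0.05 there was no member and 3.16% of all genes. Neither edgeR nor DESeq2 called any member. The RNA of the antibody-positive mice was extracted with another kit than that of the proteinuric mice. The antibody-positive mice were also younger, at 28, 29 and 18 weeks against 39, 36 and 32 weeks for H6, H20 and H117. Kit, age and disease state therefore cannot be told apart.

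The antibody-positive libraries 1, 2 and 3 held 1262, 1269 and 686 reads of the 49 genes, or 274 ± 91.4 per 100000 (SD, n = 3), against 303 ± 67.6 in proteinuric mice. Library 3, of the mouse aged 18 weeks, was the lowest and also had the most erythroid reads of the 3, 1492 against 285 and 50, and the largest mitochondrial share, 23.0% against 5.79% and 5.35%, and their part in its lower sum was not tested. Over the 43 tested members the median log2 difference, proteinuric minus antibody-positive, was 0.07, against -0.08 over all genes, and it was -0.12 over the members without library 3 and 0.24 scaled to reads outside ribosomal RNA.

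Single genes showed how much could have been missed. Mki67 had 21, 20 and 21 reads in the antibody-positive libraries and 7, 32 and 37 in the proteinuric ones, with a log2 difference of 0.04 and a 95% interval from -0.88 to 0.97. Pcna had -0.04 (interval -0.73 to 0.65), Cdk1 0.16 (interval -0.63 to 0.94), Ccnb1 0.33 (interval -0.29 to 0.95) and Mcm5 -0.24 (interval -0.95 to 0.48). Rrm2, with 53, 69 and 14 reads in antibody-positive and 36, 26 and 39 in proteinuric mice, had an interval from -1.31 to 1.06. Cenpa at 0.62, Tubb5 at -0.56, Ccnd3 at -0.57 and Ccnd2 at -0.52 were the members farthest from 0.

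The library of the young mouse held 942 reads of the 49 genes, or 261 per 100000 (95% Wilson interval 245 to 278), between the lowest and the highest library of the other lymph nodes (169 and 372). Mki67 had 32 reads, Mcm5 30 and Hmgb2 90. Its mitosis share was 43.3% (interval 39.0 to 47.7), with 41.4 reads of S-phase and mitosis genes per 100 lymphocyte marker reads. With 1 library this group was not tested.

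The 16 members under the filter in the tissue comparison were Ccne1, Ccne2, E2f1, Cdc6, Gins2, Tyms, Tk1, Ccnb1, Birc5, Cdca8, Bub1, Bub1b, Tpx2, Kif11, Cenpe and Nusap1. Ccne1, the E cyclin that starts S phase, had 1 read over the 4 kidney libraries, 13 over TLS and 24 over lymph node of proteinuric mice. The ratio of pooled reads, TLS over kidney, was 14.2 with a 95% counting interval from 2.13 to 602. Ccnb1, the main B cyclin, had 3 reads in kidney, 12 in TLS and 21 in lymph node, a ratio of 4.36 for TLS over kidney (interval 1.18 to 24.1). Cdc6, which loads the Mcm ring, had no read in kidney and 7 in lymph node. With the kidney group set to a floor of 3 reads the ratio was 2.76, without an interval. Gins2 had reads in 2 of the 14 libraries only, and Bub1, a checkpoint kinase, had none in TLS or kidney. The intervals cover counting error only, and the ratio of Cdc6 leaves out the counting error of its 7 lymph node reads.

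Other genes of the same processes were read from 4 lists that did not contain the members. The filter left 24 of 43 other replication genes and 41 of 52 other mitosis genes untested. Of 19 tested other replication genes, 2 were up-regulated in TLS over kidney, Gmnn, which blocks relicensing (log2 fold change 1.23, limma adjusted p = 0.0291), and Rpa1, a single-strand binding protein (0.93, adjusted p = 0.038). In lymph node over kidney it was 17 of 19, beside 20.8% of all genes, and in lymph node over TLS 0. The 2 of 19 stand beside 8.62% of all genes up-regulated in TLS, a share near that of the list. Of 11 tested other mitosis genes, 3 were up-regulated in TLS over kidney (8.62% of all genes), Smc4, Cdc25b and Kif22, and 10 in lymph node over kidney (20.8% of all genes), among them Smc4, a condensin subunit, at 2.43 (adjusted p = 0.000803). Again none differed between lymph node and TLS.

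Among 11 tested inhibitors and pocket proteins, 5 were up-regulated in lymph node over kidney and 3 in kidney, beside 20.8% and 23% of all genes, so that the count toward kidney was near the background. Cdkn1c, an inhibitor of cyclin-dependent kinases, had 13, 18, 9 and 5 reads in kidney H6, H20, H115 and H117, 8, 9 and 6 in TLS H6, H20 and H115 and none in the lymph node libraries of proteinuric mice. It was higher in kidney (limma adjusted p = 7.77e-06) and in TLS (adjusted p = 0.000575) than in lymph node. Gadd45b, a stress gene, was higher in TLS than in kidney by 1.80 (adjusted p = 0.00542) and in lymph node by 3.01 (adjusted p = 2.84e-05). Of 5 tested other cyclins and kinases of G1, 2 were up-regulated in lymph node over kidney (20.8% of all genes), Cdk2 and E2f4, and none differed in TLS.

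Some members share sequence with other genes. In GENCODE M21 (GRCm38), exons of 15 members overlapped exons of a gene on the other strand, and whether reads were counted by strand is not given in the sources used here. For 5 of these the overlap was at least 500 bases and the partner had reads, namely Cdk4 with Tspan31, Ccne2 with Ints8, Ccna2 with Exosc9, Ube2c with Tnnc2 and Kif20a with Cdc23. A near-identical copy was found for 13 members, counting sequences elsewhere in the genome that were at least 95% identical over 200 bases or more. Of the copies in the table, the Pcna pseudogene Pcna-ps2 had 145 reads beside 678 of Pcna, and Gm8203, a copy of H2afz, had 256 beside 1217, so that the values of Pcna and H2afz are uncertain by the way reads were shared.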

How the data were processed

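Poly(A) RNA of 14 libraries was sequenced on an Ion Torrent PGM, and per the study's methods CLC Genomics Workbench 8 mapped and counted reads on GRCm38 with default settings. The authors deposited 1 normalized signal for each gene in every library. Dividing by the lowest value of a library gave whole numbers for 100% of values (tolerance 1e-06), so that signals are reads plus 1 over a size factor and reads were recovered. The 15 whole kidney libraries were not analysed here. The members, lists and tests were chosen with earlier results of these data known. Signals were tested as log2(value + 1) with limma 3.58.1 (trend, robust) in R 4.3.3 for genes with a mean of at least 5, in fits of 10 (3 tissues) and 6 libraries (lymph nodes), Benjamini-Hochberg adjusted over all genes. Named were the members called, at most 10 per comparison by fold change, the member with the most reads in each role group, and Mki67, Top2a, Pcna, Mcm5, Cdk1 and Ccnb1. Others were named after their values were seen. Mice link tissues, as numbers mark 1 animal. Deviations from tissue means correlated at 0.351 to 0.454 across genes in the 3 kidney and TLS pairs, -0.335 to 0.202 for kidney and lymph node and -0.266 and 0.0254 for TLS and lymph node. Alternatives were edgeR 4.0.16 (TMM or DESeq2 size factors), DESeq2 1.42.0, other scaling, pseudocounts of 0.5 and 5, filters, a fold limit, the mouse as a block, 2 tissues only and left-out libraries. Copies were searched with blastn 2.17.0. The model fits were tested on simulated data. Samples came from separate mice, except tissues sharing a number.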

Additional observations from a re-analysis of the deposited data

How the results depend on the processing

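With 3 or 4 libraries a group and 53 to 1275 member reads a library, small differences in single genes were not detectable at this depth. The number of members up-regulated in TLS over kidney was 7, 3 when scaled to reads outside ribosomal RNA, 2 without kidney of mice H115 and H117 (chosen after seeing the data) and 3 to 13 when 1 library was left out. In lymph node over TLS it was 0, 1 with a pseudocount of 5 (Cenpa), 2 without a filter (Bub1 and Cenpa), 2 without kidney of mice H115 and H117 and 0 to 1 when 1 library was left out. In lymph node over kidney it was 30, 16 with a mean value of at least 10, which tested 19 members, and 22 to 32 when 1 library was left out. In antibody-positive against proteinuric lymph node it was 0 throughout. The shares of all genes called under these alternatives are not given here. With the mouse as a replicate block the counts were 8, 0 and 30 for the 3 tissue comparisons, with Rrm2 gained in the first, and Kif20a lost and H2afz gained in the third. No named fold change that had passed the test changed direction under any alternative run. Top2a in TLS over kidney lost its call in 11 of 21 alternatives (adjusted p from 0.00904 to 0.248), Mcm3 in 7, Mcm4 in 5, Mcm5 in 4 and Mki67 in 1 of 22, and Ccnd2 and Hmgb2 in none. In lymph node over kidney, Cdk1 lost its call in 10 of 21 and Tubb5 in 3 of 22. TMM moved the median log2 fold change of all genes by 0.13 in TLS over kidney and by -0.18 in lymph node over TLS. In the lymph node comparison TMM moved it by 0.10 and the scaling to reads outside ribosomal RNA by 0.14. The log2 ratio of the summed reads stayed within 1 SD of its value under all alternatives. This SD is that of the log2 of the sums within the groups, and the kidney sums spread widely (31.7 to 136 per 100000). When 1 library was left out the ratio was 0.86 to 1.45 for TLS over kidney, 0.44 to 0.96 for lymph node over TLS, 1.56 to 2.14 for lymph node over kidney and -0.11 to 0.32 for proteinuric over antibody-positive lymph node. Without both kidney H115 and kidney H117 the kidney sums left were 136 and 130 per 100000. The ratios of TLS and of lymph node over kidney then lay below these ranges. The cause of these changes was not tested.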
